A study of Rattus norvegicus with 6 samples.

Results

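The 8 genes described here belong to the MHC class II system of the rat and were followed in cerebral arteries after a low or a high salt diet. They are the alpha and beta chains of the RT1-D molecule (RT1-Da and RT1-Db1) and of the RT1-B molecule (RT1-Ba and RT1-Bb), the invariant chain Cd74, the peptide exchange factor made of RT1-DMa and RT1-DMb, and the transactivator Ciita. They were chosen by gene symbol in the array's annotation, and all 8 were present, with 11 of the 15866 probe sets tested and 8 of the 10411 genes with a single symbol. RT1-Db1, RT1-Ba and RT1-Bb had 2 probe sets each, and the brighter one (highest mean over 6 arrays) stands for the gene unless stated.

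The animals were Dahl rats, a line whose blood pressure climbs on salty food. All had chow with 0.4% NaCl before the study. From 7 weeks of age, 9 rats stayed on 0.4% NaCl for 12 weeks (low salt) and 9 were given 8% NaCl (high salt) for 11 weeks by one label and 12 weeks by another. Primary branches of the arteries at the brain's base were taken intact, the RNA of 3 rats was pooled for each array, and 3 arrays were run per diet. Which pools were frozen and which were kept in a preservative is not in the labels, so that storage and diet cannot be told apart. Since each array mixes 3 rats, the spread between arrays is that between pools and of the assay together.

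MHC class II molecules display peptides from engulfed or endosomal protein to helper T cells. An alpha and a beta chain pair in the endoplasmic reticulum, where the invariant chain fills their groove and carries them to endosomes. Cathepsins there cut the invariant chain down to a short fragment, which the DM dimer exchanges for antigen peptide. Macrophages, dendritic cells and B cells make these genes constantly, and other cells after interferon gamma. In both cases transcription of the genes other than Ciita itself relies on Ciita. It docks on factors bound to short boxes, named X and Y, just upstream of those genes. In the brain, the cells best known for class II lie around vessels and in the meninges.

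The boxes are shown because Ciita acts through them, while the genes themselves were chosen by symbol. The RefSeq promoter table of GRCr8 (250 bases before to 50 after each start) held 6 of the 8 genes. The stretches below run 5′ to 3′ on the gene's strand, and capitals mark matches to the letters TGATTGG (core of the Y box) and ACNGATG (part of the X box), or to GCAAC where those X letters were not found.
RT1-Da (GRCr8 chr20:4515314-4515383, plus strand): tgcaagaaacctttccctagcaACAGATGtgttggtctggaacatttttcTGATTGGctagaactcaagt
RT1-Db1 (chr20:4560225-4560294, minus strand): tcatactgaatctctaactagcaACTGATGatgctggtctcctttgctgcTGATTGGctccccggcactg
RT1-Ba (chr20:4576962-4577031, plus strand): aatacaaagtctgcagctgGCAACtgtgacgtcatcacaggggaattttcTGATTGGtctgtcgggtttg
RT1-Bb (chr20:4604162-4604231, minus strand): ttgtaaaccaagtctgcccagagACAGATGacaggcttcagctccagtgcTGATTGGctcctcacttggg
RT1-DMa (chr20:4712382-4712451, minus strand): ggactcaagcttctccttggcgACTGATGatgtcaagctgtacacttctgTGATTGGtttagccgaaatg
Cd74 (chr18:56527116-56527185, plus strand): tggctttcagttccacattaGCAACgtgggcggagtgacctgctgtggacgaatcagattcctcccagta

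The Y letters were found in 5 of these 6 promoters, between 45 and 82 bases before the start, and on either strand in 7.06% of all 33469 promoters of the same length. The X letters were found in 4 of 6 and in 10.2% of all promoters. In RT1-Da, RT1-Db1, RT1-Bb and RT1-DMa the X letters came first and the Y letters followed on the same strand, with starts 27 or 28 bases apart. Over all 33469 promoters, read on both strands, 14 held that order at 20 to 40 bases (0.0418%). Besides these 4 members they include RT1-Db2 and RT1-DOb, a beta chain of RT1-D and one of the DO modulator, so that 6 of the 14 are class II genes of chromosome 20. The letters were chosen with the members' sequences in view, so this is a description of a shared layout. In RT1-Ba only GCAAC was found in place of the X letters, and the Cd74 stretch holds GCAAC with neither of the other strings. GCAAC alone is common, on either strand in 35.1% of promoters.

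Values are log2 expression from the authors' robust multi-array averaging (RMA), and each difference is the high salt mean less the low salt mean. No class II gene passed the test. Over all 6 arrays the 4 chains that form the antigen-binding molecules had larger differences than the other 4 genes, an order that was not tested and that did not hold with 1 array left out: without low salt replicate 1 RT1-Da differed by 0.08, RT1-DMa by 0.28 and Cd74 by 0.22, and without high salt replicate 3 RT1-Da and RT1-DMa both by 0.23. RT1-Db1 differed by 0.63 ± 0.15 (SE), or 1.54-fold, RT1-Bb by 0.52 ± 0.15, or 1.43-fold, RT1-Ba by 0.40 ± 0.17 and RT1-Da by 0.37 ± 0.33. Cd74 differed by 0.16 ± 0.10, RT1-DMa by 0.14 ± 0.21, RT1-DMb by 0.02 ± 0.13 and Ciita by -0.05 ± 0.13. Under limma with Benjamini-Hochberg adjustment over all probe sets, 0 of the 8 genes had an adjusted p below 0.05, against 0 of 10411 genes (0%), and the members' adjusted p ran from 0.803 to 0.969. At an unadjusted p below 0.05, 2 of 8 were higher (limma), where 5.72% of all genes were, and 0 were lower, where 0.711% were. After median centring of each array 2 of 8 were higher at that threshold (2.96% of all genes), and after quantile normalization 1 of 8, RT1-Db1 (2.78%).

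RT1-Db1, the beta chain of RT1-D, was 9.85, 10.27 and 9.95 on low salt replicates 1 to 3 and 10.67, 10.78 and 10.50 on high salt replicates 1 to 3. The groups did not overlap, with all high salt arrays above all low salt arrays. The group means were 10.02 ± 0.22 (SD, n = 3) and 10.65 ± 0.14, and the difference of 0.63 had a 95% confidence interval from 0.26 to 1.00 (limma, unadjusted for the number of genes; adjusted p = 0.803).

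RT1-Bb, the beta chain of RT1-B, was 9.02, 9.30 and 9.30 on low salt and 9.47, 9.88 and 9.83 on high salt. Here too the groups did not overlap, though high salt replicate 1 lay close to the low salt arrays. The means were 9.21 ± 0.16 (SD, n = 3) and 9.72 ± 0.22, with an interval of the difference from 0.14 to 0.90. RT1-Db1 and RT1-Bb were the 2 of 8 members whose groups did not overlap upward, against 8.64% of all genes, and 0 of 8 were separated downward, against 3.32%.

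RT1-Ba, which pairs with RT1-Bb, was 9.18, 9.51 and 9.35 on low salt and 9.43, 9.90 and 9.92 on high salt. High salt replicate 1 fell below low salt replicate 2, so that the groups overlapped, and the interval of the difference ran from -0.02 to 0.83. RT1-Ba and RT1-Bb followed each other over the 6 arrays (Pearson r = 0.96, a description over arrays that share their diets and scaling).

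RT1-Da, which pairs with RT1-Db1, was 11.48, 12.73 and 12.00 on low salt and 12.32, 12.28 and 12.74 on high salt. Its low salt arrays spanned 1.24 log2 units, the widest range of the 8 genes on that diet, and low salt replicate 2 was level with the highest high salt array. The means were 12.07 ± 0.62 (SD, n = 3) and 12.44 ± 0.25. With low salt replicate 1 left out the difference was 0.08, and with replicate 2 of that diet left out 0.70, and its interval over all arrays ran from -0.44 to 1.19. RT1-Da and its partner RT1-Db1 correlated less closely over the 6 arrays (r = 0.61) than the RT1-B pair did, a comparison that was not tested.

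**Figure D1:**
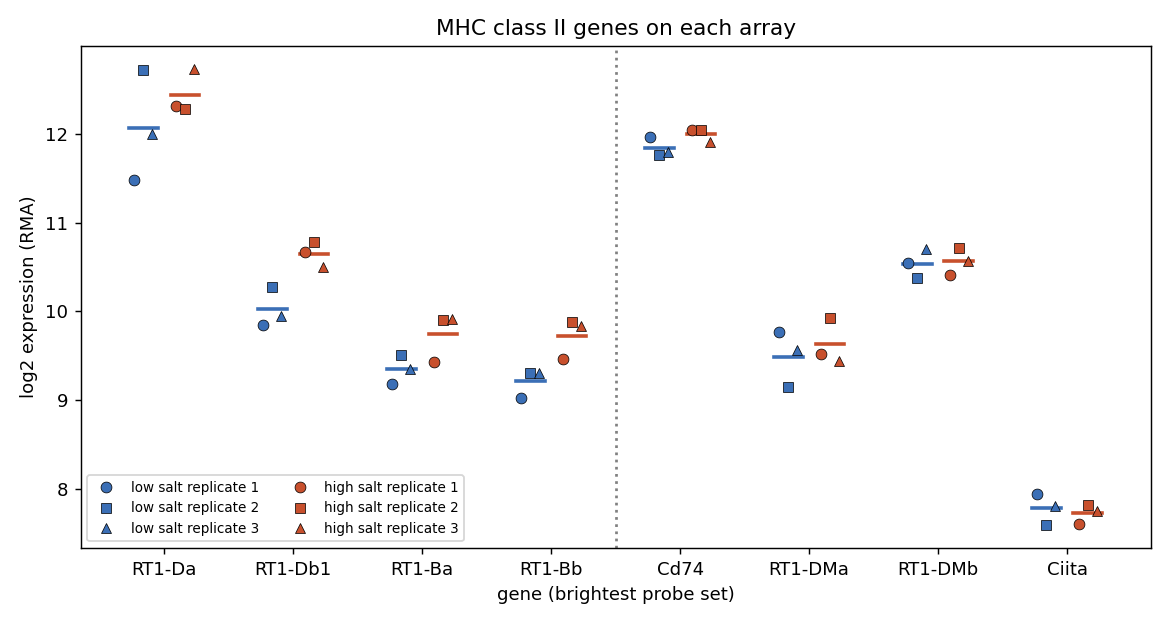
Log2 expression (vertical axis) of the 8 genes, with 1 point per array, blue for low salt and red for high salt, the replicate number by symbol and a bar at each group mean (n = 3). The red points lie above all blue points for RT1-Db1 and RT1-Bb, while the diets overlap for the other 6 genes and low salt replicate 2 of RT1-Da stands at 12.73.

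Cd74, the invariant chain, which also serves as a receptor for the cytokine Mif, was 11.96, 11.76 and 11.79 on low salt and 12.05, 12.05 and 11.91 on high salt. The diets overlapped, and low salt replicate 1 stood above high salt replicate 3. The interval of the difference ran from -0.10 to 0.42 and overlapped that of RT1-Bb (0.14 to 0.90). Whether the differences of Cd74 and RT1-Bb are unlike was not tested.

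RT1-DMa was 9.77, 9.14 and 9.56 on low salt and 9.51, 9.93 and 9.44 on high salt. RT1-DMb was 10.54, 10.37 and 10.70 on low salt and 10.41, 10.71 and 10.57 on high salt. The diets were interleaved for both chains of the exchange factor, with intervals from -0.39 to 0.66 for RT1-DMa and from -0.31 to 0.36 for RT1-DMb. Low salt replicate 2, the array with a high RT1-Da, was the lowest of the 6 for both DM genes.

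Ciita, the transactivator, was 7.94, 7.58 and 7.80 on low salt and 7.60, 7.82 and 7.75 on high salt. Its highest and its lowest value were both on low salt arrays, and the interval ran from -0.37 to 0.26. Over the 6 arrays its correlation was -0.77 with RT1-Da and -0.47 with RT1-Db1, and 0.75 with RT1-DMa. These describe 6 arrays only.

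The dimmer probe sets did not repeat the differences of the brighter ones. That of RT1-Db1 (mean level 7.89) gave 0.14 ± 0.10, that of RT1-Ba (6.66) -0.03 ± 0.09 and that of RT1-Bb (6.14) 0.000838 ± 0.11. The last lies below the lower quartile of the arrays (6.59), where a difference says little, and that of RT1-Ba just above it. The name of the brighter RT1-Db1 probe set ends in _s_at, a suffix Affymetrix gives to sets that can match several related transcripts. Its value is therefore uncertain between RT1-Db1 and a close relative such as the neighbouring RT1-Db2, which had no probe set of its own here. Class II genes are also highly polymorphic between rat strains, and how well the probes fit the Dahl alleles was not tested.

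Differences in these arrays depended on how bright a gene was, and the class II genes are bright. The median over all 10411 genes was 0.07, but it was 0.26 in the brightest quintile of genes, which holds RT1-Db1, RT1-Da, RT1-DMb and Cd74, and 0.23 in the next quintile, which holds RT1-Bb, RT1-Ba and RT1-DMa. Ciita lies in a dimmer quintile with a median of -0.01. RT1-Db1 at 0.63 and RT1-Bb at 0.52 lay above the upper quartile of their quintiles (0.49 and 0.46), and RT1-Da and RT1-Ba lay between the median and that quartile. Cd74, RT1-DMa and RT1-DMb lay below the median of genes as bright as they are. Groups did not overlap upward for 10.6% of genes in the brightest quintile and 13.4% in the next.

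Median centring and quantile normalization moved the difference of each of the 8 genes downward. Centring takes the same amount from each difference, so it cannot change the order of the genes. Under quantile normalization, which can, the 4 chains stayed above the other 4 genes. After median centring RT1-Db1 stood at 0.50, RT1-Bb at 0.39, RT1-Ba at 0.27 and RT1-Da at 0.24, and after quantile normalization at 0.38, 0.29, 0.17 and 0.20. Cd74 stood at 0.03 and -0.02, RT1-DMa at 0.01 and -0.12, RT1-DMb at -0.11 and -0.22, and Ciita at -0.19 and -0.16. RT1-Db1 remained without overlap under both and RT1-Bb under centring only, where 4.01% (centring) and 4.74% (quantile normalization) of all genes were separated upward. Downward, 0 of the 8 genes were separated under either, where 13.9% (centring) and 7.66% (quantile normalization) of all genes were. Of the 8 genes 7 were higher after high salt in the deposited values, 6 after centring and 4 after quantile normalization, beside 60%, 42.8% and 46.3% of all genes. The median over the 8 was 0.27, 0.14 and 0.08, beside 0.07, -0.06 and -0.02 over all genes. At an unadjusted p below 0.05 (limma) the split of all genes was 595 higher and 74 lower as deposited, 308 and 265 after centring, and 289 and 270 after quantile normalization.

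**Figure D2:**
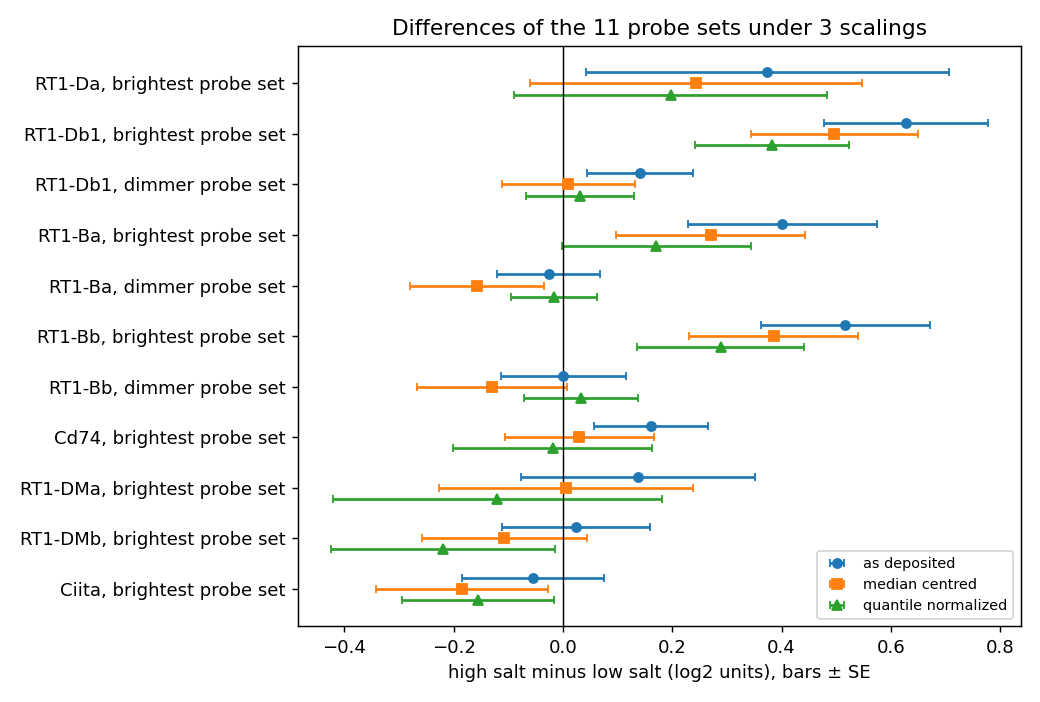
Difference between diets (horizontal axis, high salt mean less low salt mean, log2 units, bars are the SE from limma) for each of the 11 probe sets under 3 scalings. The brightest probe sets of RT1-Da, RT1-Db1, RT1-Ba and RT1-Bb stay to the right of 0 under each scaling, while RT1-DMb runs from 0.02 to -0.22 and the dimmer probe sets lie near 0.

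Subtracting Cd74 on the same array cancels any shift that an array gives both genes alike. The level of this quantity has no meaning of its own, since it sets one probe set against another, and only its change between arrays is read. For RT1-Db1 it was -2.12, -1.49 and -1.85 on low salt and -1.38, -1.26 and -1.41 on high salt. All high salt arrays lay above all low salt arrays, and the means differed by 0.47. For RT1-Bb the means differed by 0.36, for RT1-Ba by 0.24 and for RT1-Da by 0.21, with overlap between diets in each. Measured against RT1-DMb in the same way, RT1-Db1 (0.60) and RT1-Bb (0.49) did not overlap between diets, and RT1-Ba (0.38) and RT1-Da (0.35) did. These differences were not tested.

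**Figure D3:**
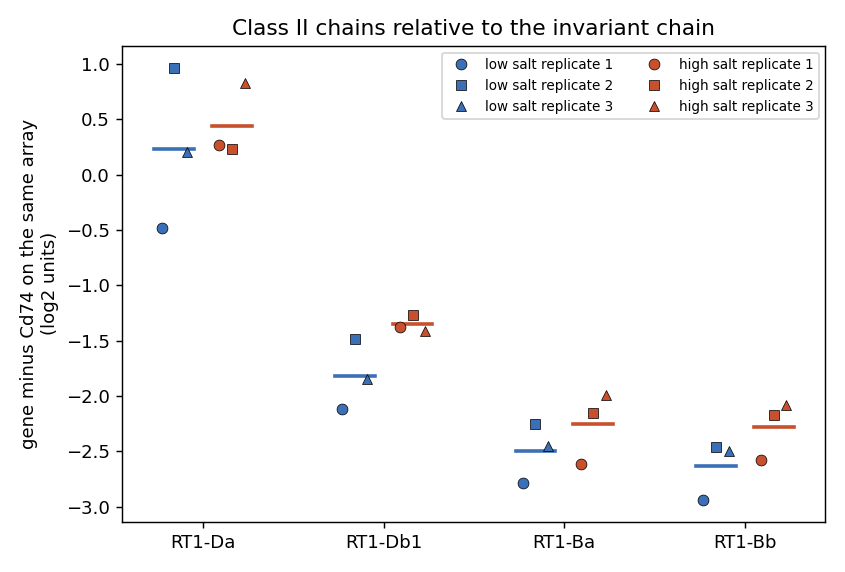
Log2 value of each class II chain minus that of Cd74 on the same array (vertical axis), by diet (blue low salt, red high salt) and replicate, with a bar at each group mean (n = 3). The red points of RT1-Db1, from -1.41 to -1.26, lie above its blue points, and the diets overlap for the other 3 chains.

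On chromosome 20 the RefSeq table of GRCr8 lists 15 protein coding genes from RT1-Da to RT1-DOa, and 11 of them were measured. In their order, the differences were 0.37 (RT1-Da), 0.63 (RT1-Db1), 0.40 (RT1-Ba) and 0.52 (RT1-Bb), then 0.37 ± 0.16 for Tap2, 0.55 ± 0.25 for Psmb8, 0.48 ± 0.17 for Tap1 and 0.15 ± 0.14 for Psmb9. RT1-DMb, RT1-DMa and the transcription regulator Brd2 (0.15 ± 0.24) follow. Tap1 and Tap2 form the pump that brings peptides to class I molecules, and Psmb8 and Psmb9 are subunits of the immunoproteasome that cuts those peptides. Tap2, Psmb8 and Tap1 did not overlap between diets, each higher after high salt, with an adjusted p of 0.803 (limma, Benjamini-Hochberg). Of all genes 8.64% were separated upward. After quantile normalization Tap2, Psmb8 and Tap1 stood at 0.38, 0.31 and 0.33, and Psmb9 at -0.09. RT1-Db2, RT1-DOb, Brd2l and RT1-DOa are not analysed here.

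**Figure D4:**
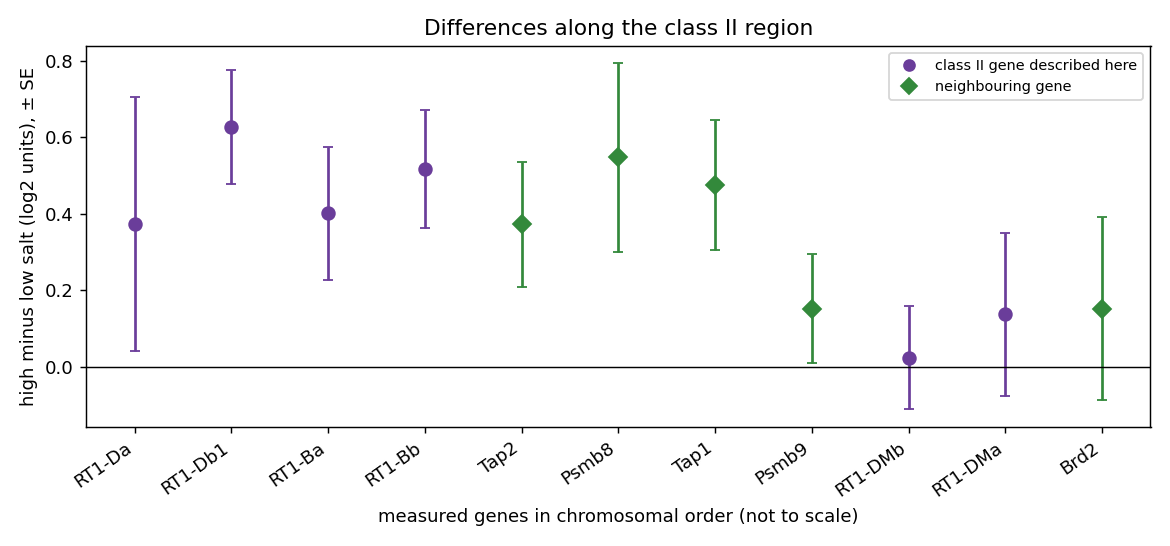
Differences between diets (vertical axis, high salt mean less low salt mean, log2 units, bars are the SE from limma) of the 11 measured genes between RT1-Da and Brd2, in chromosomal order without scale. Circles are class II genes and diamonds their neighbours, and the values from RT1-Da to Tap1 (0.37 to 0.63) stand above those from Psmb9 to Brd2 (0.02 to 0.15). This order was not tested and did not hold without low salt replicate 1, where RT1-Da differed by 0.08 and RT1-DMa by 0.28.

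A list of class II accessory genes holds proteases and a reductase of endosomes, the ligases Marchf1 and Marchf8, the ligand Mif and the co-receptor Cd44. Of the 12 measured, 10 were higher and 2 lower, with 0 passing the test (limma, adjusted over all probe sets), a median difference of 0.52 beside 0.07 over all genes, and 5 without overlap between diets upward. These genes are bright as well: 9 of the 12 lie in the 2 brightest quintiles, whose medians were 0.26 and 0.23. In those quintiles 78% and 75.1% of genes were higher and 10.6% and 13.4% were separated upward. Of all genes 60% were higher and 8.64% were separated upward. The median of the list was 0.39 after centring, 0.34 after quantile normalization, and from 0.36 to 0.65 with 1 array left out. Cathepsin H (Ctsh) differed by 0.84 ± 0.32, cathepsin D (Ctsd) by 0.82 ± 0.30, legumain (Lgmn, an asparagine-specific endopeptidase) by 0.72 ± 0.23 and the intramembrane protease Sppl2a, which clears the last fragment of the invariant chain, by 0.64 ± 0.20. Cathepsin S (Ctss), the main protease of the invariant chain in antigen presenting cells, differed by 0.17 ± 0.12, the thiol reductase Ifi30 by 0.33 ± 0.15, and cathepsin B (Ctsb) by 0.43 ± 0.20. Marchf1 and Marchf8, ligases that mark class II for removal from the surface, differed by 0.10 ± 0.17 and 0.62 ± 0.35. The Cd74 ligand Mif (-0.12 ± 0.27) and the co-receptor Cd44 (-0.30 ± 0.24) were the 2 on the low side.

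A list of factors of the X and Y boxes, and of chromatin proteins and enzymes linked to Ciita, held 11 measured genes. It was not divided by whether a gene promotes or opposes class II. Of the 11, 7 were higher, where 60% of all genes were, and 4 lower, with 0 passing the test. The median difference was 0.22, or 0.10 without low salt replicate 1, 0.09 after centring and 0.10 after quantile normalization. Nfyc, a subunit of the factor that binds the Y box, differed by -0.22 ± 0.22 (-0.45 after quantile normalization). The others on the low side were Rfxank (-0.38 ± 0.46), Rfx5 (-0.02 ± 0.45) and Creb1 (-0.01 ± 0.32). The chromatin remodeller Smarca4 differed by 0.26 ± 0.12 (0.02 after quantile normalization), the methyltransferase Ezh2 by 0.22 ± 0.13 (0.22) and the acetyltransferase Crebbp by 0.41 ± 0.24 (0.19). Of 13 genes of interferon gamma signalling, 7 were higher, where 60% of all genes were, 6 were lower and 0 passed. Their median difference was 0.07. That median was -0.06 after centring, 0.05 after quantile normalization, 0.21 without high salt replicate 1 and -0.0035 without high salt replicate 2. The receptor chains Ifngr1 and Ifngr2 differed by 0.56 ± 0.28 and 0.34 ± 0.17 (0.33 and 0.11 after quantile normalization). The transcription factor Irf1, a target of that pathway, differed by 0.44 ± 0.24 (0.23). Irf8 (0.50 ± 0.32) and Gbp2 (0.41 ± 0.48) were higher, and the feedback genes Socs1 (-0.20 ± 0.13) and Socs3 (-0.21 ± 0.14) lower. Cxcl10 differed by 0.07 ± 0.14. Cxcl9 (-0.03 ± 0.10) and Ido1 (-0.03 ± 0.12) lay below the lower quartile. Interferon gamma itself (Ifng) lay at a mean level of 5.48, below the lower quartile of the arrays. It differed by -0.13 ± 0.09.

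Class I presentation gave a median of 0.15 over 25 genes, 16 higher and 9 lower, with 0 passing and 7 without overlap upward. Of all genes 60% were higher and 8.64% were separated upward. The 2 brightest quintiles hold 14 of the 25, and there 78% and 75.1% of genes were higher and 10.6% and 13.4% were separated upward. The median of the class I list was 0.02 after centring and 0.07 after quantile normalization, and 0.26 without low salt replicate 3. The immunoproteasome subunit Psmb10 differed by 0.76 ± 0.26, the proteasome activator Psme2 by 0.36 ± 0.12 (0.14 after quantile normalization), and the class I light chain B2m by 0.15 ± 0.15. Heavy chain genes went both ways. RT1-M3-1 differed by 0.37 ± 0.22, RT1-CE10 by 0.34 ± 0.13 without overlap between diets (0.32 after quantile normalization), RT1-CE16 by 0.24 ± 0.12, RT1-CE12 by 0.10 ± 0.11 and RT1-CE5 by 0.08 ± 0.14. On the low side were RT1-N2 (-0.24), RT1-A3 (-0.19), RT1-T24-4 (-0.17), RT1-T24-3 (-0.16), RT1-S3 (-0.12 ± 0.25), RT1-N3 (-0.10) and RT1-A (-0.02). The heavy chain genes are close relatives of each other, and how well their probes tell them apart was not tested. Of 8 costimulatory genes, 3 were higher and 5 lower, 4 of the 8 below the lower quartile, with 0 passing and a median of -0.03. Cd40, the receptor by which helper T cells license antigen presenting cells, was 7.41, 8.01 and 7.70 on low salt and 8.52, 8.52 and 8.36 on high salt. Its groups did not overlap, and it differed by 0.76 ± 0.17 (limma, adjusted p = 0.803), or 0.67 after quantile normalization. Icam1 differed by 0.30 ± 0.13 (0.05) and Cd83, a surface protein of mature dendritic cells, by 0.75 ± 0.40. Cd40, Icam1 and Cd83 are the 3 higher genes of the list. Among the 5 lower ones Cd86 differed by -0.30 ± 0.20. Cd80 (-0.09 ± 0.08) and Cd40lg (-0.07 ± 0.08) lay below the lower quartile. In the list 2 genes were separated upward and 2 downward, beside 8.64% and 3.32% of all genes.

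Some markers of cells that carry class II were higher after high salt as well. The mean of 16 macrophage and microglia markers was 9.10 to 9.49 on the low salt arrays and 9.42 to 9.71 on the high salt arrays. Of the 16, 13 were higher, with a median of 0.20, where 60% of all genes were higher. The 2 brightest quintiles hold 9 of the 16, and there 78% and 75.1% of genes were higher, with medians of 0.26 and 0.23. The median of the markers was 0.07 after centring, 0.00452 after quantile normalization and 0.09 without low salt replicate 2. C1qa, a complement chain made by macrophages, differed by 1.19 ± 0.34, its partner chains C1qb by 0.33 ± 0.21 and C1qc by 0.10 ± 0.40, the endotoxin co-receptor Cd14 by 0.48 ± 0.29 and Aif1 by 1.10 ± 0.61, with low salt replicate 1 at 6.67 for Aif1 and the other arrays from 8.80 to 9.55. Cd68 (-0.06 ± 0.31), Itgam (-0.03 ± 0.20), Csf1r (0.19 ± 0.19) and Lyz2 (0.30 ± 0.21) differed by less than 2 SE. Of 4 dendritic cell markers measured, 3 were higher (2 after centring), with a median of 0.09 (-0.04 after centring). Among them Clec10a, a lectin of dendritic cells and macrophages, was 7.82, 9.18 and 9.01 on low salt and 10.26, 10.05 and 9.79 on high salt, a difference of 1.36 ± 0.38. Itgae differed by 0.18 ± 0.18, the transcription factor Batf3 by 0.0029 ± 0.12 and Clec9a by -0.10 ± 0.15. The mean of the 4 did not overlap between diets (7.05 to 7.42 and 7.58 to 7.75), but without Clec10a it did, at 6.80 to 6.83 on low salt and 6.68 to 6.98 on high salt. In all these lists 0 genes passed the test. In a bulk sample fewer cells of a type and less RNA per cell cannot be told apart, and the part of these cells in the class II differences was not tested.

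Lymphocyte markers were dim and mostly on the other side. Of 11 T cell markers 4 were higher and 7 lower, 7 of 11 lay below the lower quartile, and their mean was 6.42 to 6.47 on low salt and 6.25 to 6.47 on high salt. Dim genes in general leaned that way: 32.1% of the dimmest quintile of genes and 48.2% of the next were higher. Of the 11 markers, 0 lie in the 2 brightest quintiles. Cd3g differed by -0.29 ± 0.11, Cd3d by -0.26 ± 0.15, Cd2 by -0.15 ± 0.14 and the kinase Lck by -0.15 ± 0.17. The B cell marker measured, Cd79b, lay at 6.04 to 6.43 on low salt and 5.77 to 6.19 on high salt, also below the quartile. Over the 6 arrays the macrophage marker mean correlated with RT1-Bb at 0.93, RT1-Ba at 0.85, RT1-Db1 at 0.69, RT1-DMb at 0.56, RT1-Da at 0.50, Cd74 at 0.25, RT1-DMa at 0.25 and Ciita at -0.09. The mean of all 10411 genes correlated with RT1-Db1 at 0.84, RT1-Bb at 0.82, RT1-Da at 0.82 and RT1-Ba at 0.74. For RT1-DMb, Cd74, RT1-DMa and Ciita it gave -0.06, 0.17, -0.24 and -0.66. The interferon gamma signalling mean correlated with RT1-Bb at 0.92 and RT1-Ba at 0.95, so high values were not particular to macrophage markers. These correlations are over 6 arrays that share their diets and scaling, and are given as a description.

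Markers of the artery itself were strong: the mean of 8 smooth muscle markers was 11.12 to 12.02 on low salt and 11.31 to 11.48 on high salt, and that of 8 endothelial markers 9.91 to 10.26 and 10.21 to 10.45. Low salt replicate 2 had the lowest mean for each of these lists. All 8 smooth muscle markers had a lower mean on the high salt arrays. Their median difference was -0.15, or -0.28 after centring and -0.40 after quantile normalization. Without low salt replicate 1, low salt replicate 3 or high salt replicate 3, 2, 4 and 1 of the 8 were higher instead. Of these contractile genes Myl9 differed by -0.74 ± 0.30, Lmod1 by -0.69 ± 0.55, Acta2 by -0.63 ± 0.30 and Tagln by -0.09 ± 0.16. Of the endothelial markers, 7 of 8 were higher (4 after centring, 3 after quantile normalization), with Kdr at 1.14 ± 0.68, Emcn at 0.46 ± 0.21, Vwf at 0.21 ± 0.41 and Cldn5 at -0.10 ± 0.20. The 2 brightest quintiles hold 6 of the 8 endothelial and 7 of the 10 astrocyte markers. In those quintiles 78% and 75.1% of genes were higher, beside 60% of all genes (42.8% after centring, 46.3% after quantile normalization). Low salt replicate 2 also had an astrocyte mean of 10.82, close to the high salt arrays (10.47 to 10.82), where low salt replicates 1 and 3 had 9.31 and 8.58, and 9 of 10 astrocyte markers were higher after high salt. Their median difference was 0.99, which became 0.43 when low salt replicate 3 was left out and 1.51 when replicate 2 of that diet was. Mlc1 differed by 1.92 ± 0.94, the glutamate transporter Slc1a3 by 1.26 ± 0.68, Aldh1l1 by 1.11 ± 0.57 and the gap junction protein Gja1 by 0.71 ± 0.49. None of the markers of the artery or of astrocytes passed the test. RT1-Da correlated with the smooth muscle mean at -0.90, with the astrocyte mean at 0.73 and with the mean of all 10411 genes at 0.82 over the 6 arrays. Whether adhering brain tissue has a part in the class II values was not tested.

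**Figure D5:**
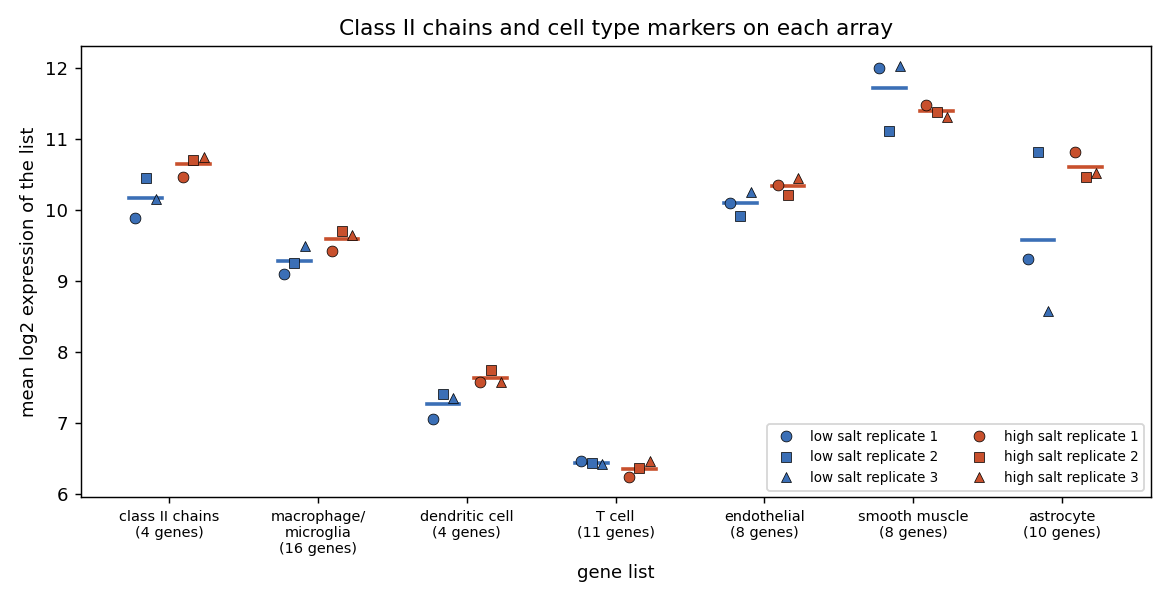
Mean log2 expression (vertical axis) of the 4 class II chains and of 6 lists of cell type markers on each array, blue for low salt and red for high salt, with a bar at each group mean (n = 3). The class II chains lie from 9.88 to 10.45 on low salt and from 10.47 to 10.74 on high salt, the dendritic cell markers are separated through Clec10a alone, and the astrocyte markers of low salt replicate 2 lie among the high salt arrays. These are deposited values, in which the mean of all 10411 genes (not drawn) was separated as well. It was 8.37 to 8.54 on low salt and 8.59 to 8.63 on high salt.

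The genes most like the class II group were sought among 5198 other genes above the median level, by correlation over the 6 arrays with the mean of the 7 members above that level. The 5 with the highest r were Sirpa (0.984), the surface receptor of myeloid cells and neurons that binds Cd47, Nol3 (0.980), an inhibitor of apoptosis, Tp53bp1 (0.979), a DNA repair protein, Tgfbi (0.978), a matrix protein, and Ext1 (0.976), an enzyme of heparan sulphate synthesis. Sirpa was 9.09, 9.36 and 9.18 on low salt and 9.70, 9.997 and 9.88 on high salt, a difference of 0.65 ± 0.13 with no overlap (limma, adjusted p = 0.803). With 6 arrays and this many candidates, the order of such correlations says little.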

How the data were processed

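RNA pools from cerebral arteries were amplified in 2 cycles and hybridised to an Affymetrix rat array. The deposited values are on a log2 scale and were made by the authors with RMA, per the submitters' processing notes; its version and the base of the log are not given in the sources used here, and base 2 was read from the range of the values. The table held 15923 rows, of which 57 control probe sets were left out. Gene names are those of the platform annotation: 12783 probe sets had 1 symbol, 312 several and 2771 none, and only the first kind was named.

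Diets were compared with limma 3.58.1 in R 4.3.3 (lmFit and eBayes, 3 arrays against 3, no block), with Benjamini-Hochberg adjustment over 15866 probe sets and a threshold of 0.05. SEs and intervals are limma's moderated ones, and SDs are over 3 arrays. The number of arrays limits the precision. The fit was tested on simulated data. The 12 gene lists, 7 of them cell type markers, are described by counts and medians only. The members and lists were chosen with earlier results of these data known. Named are all members, the brightest gene and up to 3 genes of lowest p of each list, and the 5 genes most like the members. Other genes named (Ctsh, Ctss, Ifi30, Marchf1, Marchf8, Mif, Cd44, Rfxank, Rfx5, Creb1, Ifng, Irf8, Gbp2, Socs1, Socs3, Cxcl9, Cxcl10, Ido1, the class I heavy chain genes, Tap2, Psmb8, Psmb9, Brd2, Cd86, Cd80, Cd40lg, C1qb, C1qc, Cd68, Itgam, Csf1r and Batf3) were chosen after their values were seen. Median centring, quantile normalization, a filter, other variance models, array weights, a replicate block, omission of each array and other probe set rules were tried as alternatives. A covariate for spiked-in controls was chosen after seeing the data. Promoter sequences are RefSeq's, build GRCr8, searched in Python 3.11.15.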

Additional observations from a re-analysis of the deposited data

How the results depend on the processing

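Among the class II genes, 0 of 8 passed the threshold in the deposited scaling or in any of 16 alternatives, and 0 probe sets passed in the 14 alternatives that give that count. RT1-Db1, RT1-Bb, RT1-Da and RT1-Ba stayed higher after high salt in each of their 14 alternatives. Some of these could not change a difference, only its p: the filter, the trend and robust variances and the replicate block. Averaging probe sets could not change RT1-Da, which has 1. The lowest adjusted p of any class II gene (limma, Benjamini-Hochberg) was 0.140, for RT1-Db1 without low salt replicate 2. The median difference of the 8 genes (0.27) moved to 0.14 under centring on the array medians and 0.076 under quantile normalization, and ran from 0.23 to 0.32 with 1 array left out. Signs turned for RT1-DMa, RT1-DMb, Cd74 and Ciita. Quantile normalization put RT1-DMb at -0.22, RT1-DMa at -0.12 and Cd74 at -0.019. For RT1-DMb, centring gave -0.11 and array weights -0.075. With 1 array left out RT1-DMa ran from -0.038 to 0.28, RT1-DMb from -0.060 to 0.11 and Ciita from -0.15 to 0.028. Averaging all probe sets of a gene, RT1-Db1 stood at 0.38, RT1-Bb at 0.26 and RT1-Ba at 0.19. Arrays of both diets share replicate numbers, but same-numbered arrays did not deviate together (correlation of deviations from the diet means 0.04, -0.27 and 0.04). With the replicate number as a block, the median was 0.27, which a balanced design fixes in advance, and 0 members passed.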
